A study of Mus musculus with 15 samples.

Results

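The 39 mouse genes described here encode the acid hydrolases of the lysosome, its membrane proteins, the small soluble proteins that assist the hydrolases, and TFEB with its relatives TFE3 and MITF. They were chosen by name, as the rows of the deposited count tables whose gene identifier maps to a listed symbol, and all 39 were found among 53379 mouse genes. By role they are 3 transcription factors, 8 membrane proteins, 3 soluble cofactors and transfer proteins, 10 proteases, 9 glycosidases, 4 sulfatases and 2 lipid hydrolases. RNA was sequenced from cultured mouse T-ALL cells, a leukemia of T cell precursors. The line came from a leukemia that arose in EμSRα-tTA/tet-O-MYC mice, FVB/N in the study's methods, in which the transactivator tTA, driven in lymphoid cells, keeps a human MYC transgene on until doxycycline is added. The 3 libraries at 0 h were mock treated and are the MYC on state. The 3 libraries at each of 2, 4, 8 and 24 h came from the same kind of cells after that time in doxycycline, with the transgene turned off. No library received doxycycline with MYC left on, so that loss of MYC, exposure to doxycycline and time in culture cannot be told apart. The sources used here do not say whether the line was a single clone or whether the 3 libraries of a time came from separate cultures, and the p-values then measure only the spread between these libraries.

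The lysosome is the acidic compartment in which cells break down proteins, glycans and lipids delivered by endocytosis and autophagy. Its soluble hydrolases are made in the endoplasmic reticulum, tagged with mannose 6-phosphate in the Golgi and carried to the lysosome by receptors that recognise the tag. TFEB, TFE3 and MITF bind the E-box CACGTG, best with T and A flanks, in promoters of many lysosomal genes, and are held in the cytoplasm when the kinase complex mTORC1 is active on the lysosome. MYC, with its partner MAX, binds the same CACGTG core.

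The transgene followed its labels. Human MYC stood at 1975 to 2079 CPM (counts scaled to a common library total by TMM) in the 0 h libraries, at 23.4 to 27.1 at 2 h and at 2.94 to 3.54 at 24 h. Total counts were 25852711 to 27102318 per library. T lineage markers summed to 7119 to 12448 CPM per library, and 7 of 14 macrophage and myeloid markers, Lyz2, Cd14 and the C1q genes among them, had at most 3 reads in any library. The summed level of those 14 was 12.9 to 15.3 CPM at 0 h and 29.6 to 33.3 CPM at 24 h. Itgam, the integrin CD11b of myeloid cells, made up most of the sum at 24 h, at a mean of 2.58 CPM at 0 h and 20.6 at 24 h. Csf1r, a macrophage receptor, was the highest of the 14 at 0 h, with a mean of 8.15 CPM, and had 5.82 at 24 h. Fcgr3 had a mean of 3.35 CPM at 0 h, 7.18 at 8 h and 4.06 at 24 h. Aif1, Tyrobp, Mrc1 and Mpo had means of at most 0.358 CPM. The third 24 h library stood apart from the other 2: their chi-square over degrees of freedom against it was 77.7 and 85.4, against 2.81 to 16.5 in the other pairs of one time. Ribosomal protein genes took 3.58% of its counts and 5.53% and 5.88% of theirs. For members at 24 h against 0 h, the value without it is given where a call was gained or lost or a called value moved by over 1.5 times.

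The promoter letters are shown first because both MYC and the TFEB family read them. RefSeq promoter windows on GRCm38.p6, from 250 bases before to 50 after an annotated start, were found for 35 of the 39 members. The core CACGTG, which reads the same on both strands, occurred in 12 of the 35 (34.3%), against 2187 of 27025 genes in the whole table (8.09%). Among genes both tested and in the table it occurred in 12 of 32 members (37.5%), against 1117 of 9557 genes (11.7%). The 8-letter form TCACGTGA, also its own reverse complement and holding the core within it, occurred in 4 of 35 (11.4%), against 304 of 27025 (1.12%). Among the tested genes in the table it occurred in 4 of 32 members (12.5%), against 221 of 9557 genes (2.31%). A match is a description of these letters and no evidence of binding. The stretches below are those of the 4 members with TCACGTGA, of Lamp1, which has 4 copies of the core, and of Gaa, the member with the core whose level at 8 h was lowest relative to 0 h. They are written 5′ to 3′ on the strand of the gene, with CACGTG in capitals. Ctsd and Mcoln1 have 2 copies of the core each, and only the copy within TCACGTGA is printed.
Ctsa (chr2:164833757-164833786, plus strand): ctgtCACGTGatgcagatgctCACGTGacc
Ctsd (chr7:142387908-142387937, minus strand): tcgcccgcgtctCACGTGacccgttgaggg
Gla (chrX:134601182-134601244, minus strand): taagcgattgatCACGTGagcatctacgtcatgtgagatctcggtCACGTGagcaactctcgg
Mcoln1 (chr8:3500462-3500491, plus strand): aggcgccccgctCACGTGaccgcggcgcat
Lamp1 (chr8:13159088-13159160, plus strand): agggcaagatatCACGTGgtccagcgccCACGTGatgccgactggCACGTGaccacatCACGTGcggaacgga
Gaa (chr11:119267811-119267840, plus strand): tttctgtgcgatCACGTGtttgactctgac
The other members with the core were Arsa, Ctsl, Glb1, Lgmn, Naglu and Sgsh. At 24 h the core stood in 4 of the 12 members in the table that were higher than at 0 h, in 5 of 9 that were lower and in 3 of 11 that were not called, so that members with the letters went both ways. The windows of Gusb and Lamp2, the members with the largest falls at 24 h, did not hold these letters.

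Of the 39 members, 35 had enough reads to be tested. Ctsh, a cathepsin, had 0 reads in all 15 libraries, which allows up to 3 counts or 0.111 to 0.116 CPM per library. Ctss, another cathepsin typical of antigen-presenting cells, had 1 read over all libraries, and Cd63, a tetraspanin of late endosomes, had 2. Cd63 has an annotated pseudogene, Cd63-ps, and whether reads of Cd63 were lost to it was not tested. Arsb, the sulfatase of dermatan sulfate, had 0 to 8 reads per library. Cathepsin H transcripts were thus not detectable in these T-ALL cells at this depth, and those of cathepsin S were at 1 read.

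Members were called in both directions, more of them at each later time. Calls are an adjusted p under 0.01 in edgeR's quasi-likelihood test with Benjamini-Hochberg adjustment over the 14485 genes tested. At 2 h against 0 h, 1 member was higher (background 6.6% of all genes tested) and 1 lower (8.59%). At 4 h, 4 were higher (18.1%) and 5 lower (19.9%). At 8 h, 10 were higher (25.3%) and 7 lower (25.1%). By 24 h, 13 were higher (30.7%) and 11 lower (28.1%) of 35. In the test over all times 29 of 35 changed (74.2%). At 2 h and 4 h the members' share called was below that of all genes in each direction, and at 8 h and 24 h it was near it. The counts are therefore no result about the members, and what follows is about single genes. Their median log2 fold change at 24 h was 0.08, against 0.07 for all genes tested, while single members ranged from -2.07 to 1.13. Each member called at 24 h had its 3 libraries wholly above or wholly below those of 0 h. The share of all called genes with such separation was not counted, so that this is no result about the members. Without the third 24 h library, 14 were higher and 15 lower at 24 h. On library totals in place of TMM the median of all genes at 24 h moved up by 0.28, and 17 members were higher and 10 lower. The share of higher calls among all genes then went from 52.2% to 69.0%, and from 43.5% to 54.8% at 2 h. With upper-quartile factors it went from 47.7% to 59.7% at 4 h and from 50.2% to 63.5% at 8 h. RNA counts are relative, so that a change in RNA per cell common to all genes would not be seen, and in bulk RNA, fewer cells with a transcript and less of it per cell cannot be told apart.

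**Figure D1:**
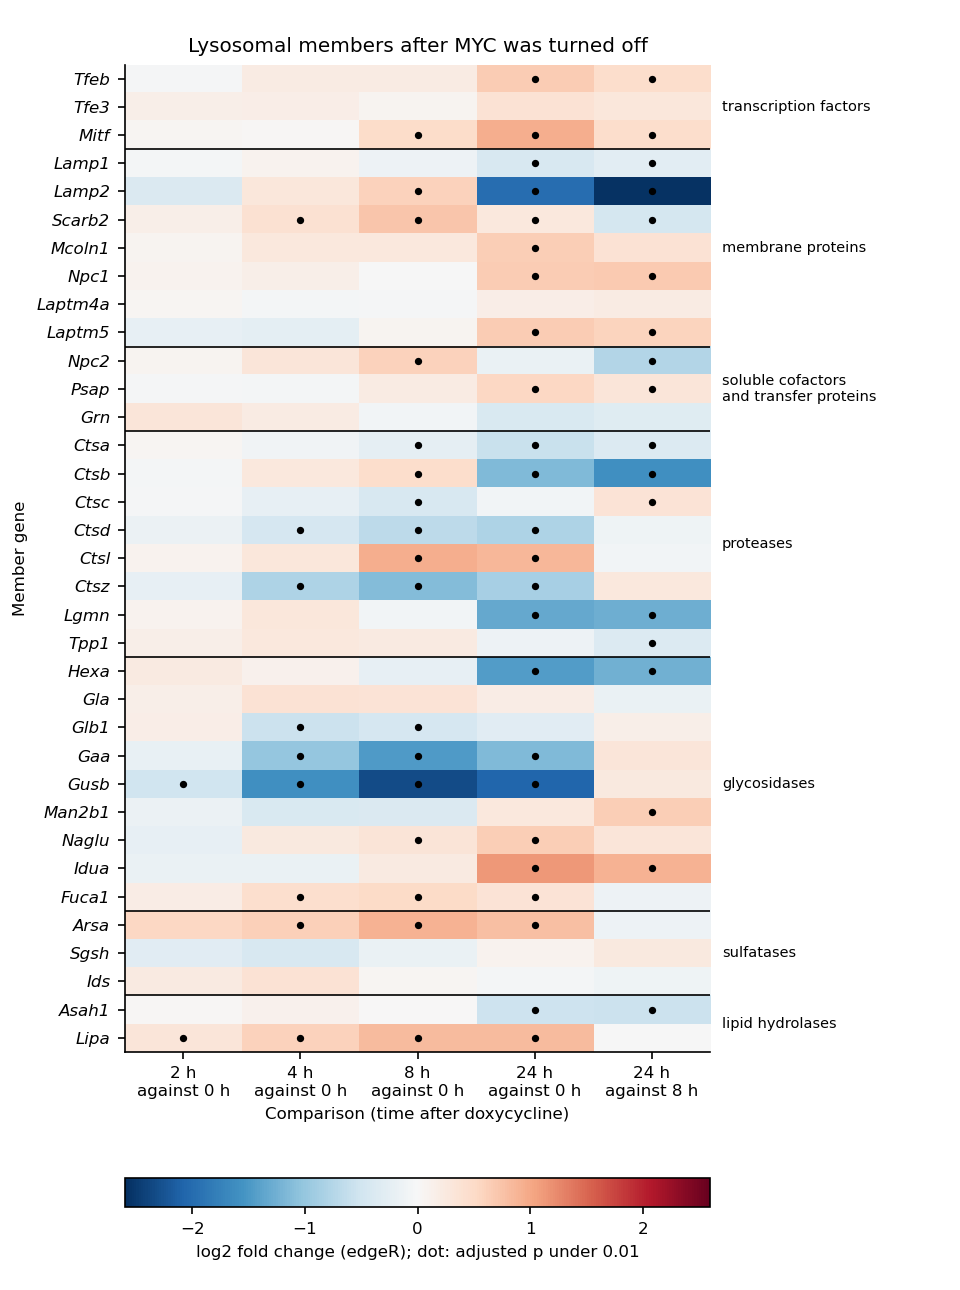
Log2 fold change of the 35 tested members (rows, grouped by role) in 5 comparisons (columns), with a dot where edgeR's adjusted p was under 0.01. Blue is lower and red higher at the later time, and Lamp2 and Ctsb are red at 8 h and blue at 24 h against 0 h.

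Per length, a few members held most of the transcripts. In the authors' TPM, which divide counts by gene length and so allow genes to be compared, the 39 members summed to 2867 ± 53.4 (SD, n = 3) at 0 h, 3616 ± 184 at 8 h and 2994 ± 236 at 24 h. Ctsb, cathepsin B, led at 0 h with 820.2 ± 28.2 TPM, followed by Lamp2 with 408 ± 6.91 and Psap with 352 ± 13.7, and these 3 made up 55.1% of the members' sum. At 24 h the order was another. Psap led with 654 ± 119 TPM, Ctsb had 469.7 ± 32.8, Laptm5 400.1 ± 136, and Lamp2 had gone from rank 2 to rank 8 with 131 ± 14.2. Ctsb and Laptm5 at 24 h were closer than the SD of Laptm5 and their order is not settled. TPM carry no TMM scaling, and Psap at 24 h was 186% of its 0 h level in TPM and 145% in CPM. Laptm5 and Lamp1, at ranks 4 and 5 at 0 h, also lay within the SD of Laptm5 of each other.

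**Figure D2:**
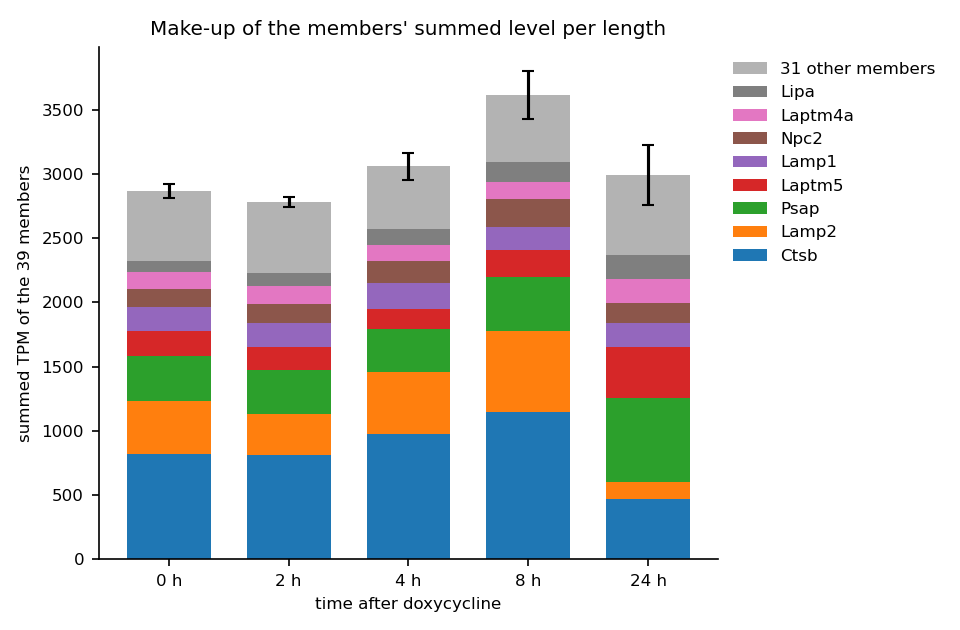
Summed TPM of the 39 members at each time (bars, mean of 3 libraries, stacked by gene, the SD of the sum as whiskers). Ctsb and Lamp2 form the lower part of each bar and together shrink at 24 h, when Psap and Laptm5 take a larger part.

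Among the transcription factors, TFEB and MITF transcripts rose late. Tfeb (ENSMUSG00000023990.18, chr17:47737030-47792419, plus strand), the gene of the main driver of lysosome biogenesis, was at 18.6, 15.3 and 17.2 (0 h), 22.3, 17.6 and 19.1 (8 h) and 26.3, 25.95 and 28.8 (24 h) CPM. Its libraries at 8 h overlapped those of 0 h and those at 24 h lay above all earlier ones. The log2 fold change at 24 h was 0.67 ± 0.11 (SE, adjusted p = 3.9e-05) by edgeR. Mitf, better known from melanocytes and osteoclasts, was at 8.15, 7.16 and 7.24 (0 h), 10.2, 11.1 and 10.3 (8 h) and 13.7, 15.6 and 13.9 (24 h) CPM, with no overlap between 0 h and either later time. It rose by 8 h, with a log2 fold change of 0.49 ± 0.11 (SE, adjusted p = 0.0013), and stood at 0.94 ± 0.11 (SE, adjusted p = 1.5e-06) at 24 h. Tfe3, whose product acts beside TFEB, was at 19.8, 19.2 and 20.03 (0 h) and 22.5, 19.97 and 34.1 (24 h) CPM, and its 24 h value of 0.37 ± 0.15 (SE, adjusted p = 0.041) did not pass the test. The third 24 h library carried that difference, and without it the log2 fold change of Tfe3 was 0.11. Direct comparison of 24 h with 4 h gave 0.46 ± 0.10 (SE, adjusted p = 0.0014) for Tfeb and 0.90 ± 0.11 (SE, adjusted p = 4.8e-06) for Mitf.

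Of the 7 membrane proteins tested, 4 were higher and 2 lower at 24 h than at 0 h (30.7% and 28.1% of all genes tested), and Lamp2 changed most of them. Lamp2 (ENSMUSG00000016534.15, chrX:38401357-38456454, minus strand) encodes an abundant glycoprotein of the lysosomal membrane, 1 isoform of which serves chaperone-mediated autophagy. It was at 1432, 1524 and 1502 (0 h), 1121, 1132 and 1187 (2 h), 1676, 1898 and 1887 (4 h), 2143, 2239 and 2358 (8 h) and 421, 415 and 299 (24 h) CPM. The libraries at 8 h were all above those of 0 h, and those at 24 h were all below every earlier library. Against 0 h the log2 fold change was 0.60 ± 0.11 (SE, adjusted p = 1.5e-04) at 8 h and -1.97 ± 0.11 (SE, adjusted p = 2.6e-10) at 24 h, so that the level at 24 h was 25.5% ± 4.63 (SD, n = 3) of that at 0 h. No other annotated gene shared exons with Lamp2. Its isoforms were not told apart in these counts.

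Lamp1, the other major glycoprotein of that membrane, moved far less. It was at 190.5, 198 and 191 (0 h), 184, 173 and 170.5 (8 h) and 154, 153 and 129 (24 h) CPM, a log2 fold change of -0.41 ± 0.07 (SE, adjusted p = 1.1e-04) at 24 h. On library totals that value was -0.14 and no longer passed. Scarb2, the receptor LIMP-2 that carries glucocerebrosidase to the lysosome, was at 96.5, 100.2 and 98.5 (0 h), 124, 128 and 136 (4 h), 160.2, 159 and 170.2 (8 h) and 125, 127 and 103 (24 h) CPM. It rose at 4 h (0.39 ± 0.08 (SE, adjusted p = 4.4e-04)) and 8 h (0.73 ± 0.08 (SE, adjusted p = 5.4e-07)), and the 24 h value of 0.27 ± 0.08 (SE, adjusted p = 0.0049) passed in the fit as designed but not in 15 of 25 alternatives.

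The remaining membrane members rose late or did not pass. Laptm5, a lysosomal protein of hematopoietic cells that takes part in turnover of antigen receptors, was at 295, 290.2 and 264 (0 h), 338, 296 and 262 (8 h) and 386, 379 and 575 (24 h) CPM, with a log2 fold change of 0.66 ± 0.14 (SE, adjusted p = 5.0e-04) at 24 h. Npc1, the cholesterol exporter of the lysosome, was at 11.2, 11.5 and 10.8 (0 h) and 17.3, 14.2 and 21.7 (24 h) CPM, a log2 fold change of 0.67 ± 0.13 (SE, adjusted p = 3.5e-04). Mcoln1, the calcium channel TRPML1, was at 16.6, 16.8 and 15.1 (0 h) and 21.99, 18.6 and 34.8 (24 h) CPM, a log2 fold change of 0.64 ± 0.17 (SE, adjusted p = 0.004). In these 3 genes the third 24 h library was the highest, and without it their log2 fold changes were 0.43 for Laptm5, 0.50 for Npc1 and 0.33 for Mcoln1, each still past the test. Mcoln1 was not called in the test over all times and lost its 24 h call in 4 of 25 alternatives. Laptm4a, a small membrane protein of late endosomes, was at 83.7, 87.4 and 91.4 (0 h) and 106, 108 and 82.4 (24 h) CPM and did not pass (0.18 ± 0.09 (SE, adjusted p = 0.1)), with the third 24 h library below the others and 0.29 without it, which passed.

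The soluble cofactors went apart. Psap encodes prosaposin, which is cut into the saposins that present sphingolipids to their hydrolases. It was at 376, 359 and 368 (0 h), 461, 416 and 401 (8 h) and 504, 504 and 591 (24 h) CPM, with 24 h above both other times and a log2 fold change of 0.53 ± 0.08 (SE, adjusted p = 2.7e-05). Npc2, the soluble cholesterol carrier that hands its load to NPC1, was at 289, 295 and 299 (0 h), 424, 449 and 469 (8 h) and 279.8, 296 and 211 (24 h) CPM. It rose at 8 h (0.60 ± 0.10 (SE, adjusted p = 7.9e-05)) and at 24 h, where its libraries overlapped those of 0 h, was not called (-0.17 ± 0.10 (SE, adjusted p = 0.14)). The partners Npc1 and Npc2 were thus high at different times, 24 h for Npc1 and 8 h for Npc2. Grn, progranulin, was at 16.8, 14.9 and 16.3 (0 h) and 9.82, 11.3 and 15.4 (24 h) CPM and did not pass at 24 h (-0.39 ± 0.14 (SE, adjusted p = 0.019)); without the third 24 h library it was -0.60 and passed.

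Of 8 proteases tested, 5 were lower and 1 higher at 24 h (28.1% and 30.7% of all genes tested), and whether the proteases differ from other genes was not tested. Ctsb (ENSMUSG00000021939.8, chr14:63122462-63145923, plus strand), a cysteine cathepsin, was at 1907, 1947 and 1824 (0 h), 1821, 1831 and 1832 (2 h), 2314, 2309 and 2259.8 (4 h), 2642, 2553 and 2569.9 (8 h) and 951, 895 and 719 (24 h) CPM. As with Lamp2, the libraries at 8 h lay above those at 0 h and those at 24 h below all others. Its log2 fold change was 0.45 ± 0.08 (SE, adjusted p = 2.5e-04) at 8 h and -1.15 ± 0.09 (SE, adjusted p = 8.7e-09) at 24 h, where 45.2% ± 6.397 (SD, n = 3) of the 0 h level remained. Fdft1, which overlaps the exons of Ctsb on the other strand, had a mean of 89.8 CPM at 0 h, 98.5 at 8 h and 91.4 at 24 h. The part of Fdft1 in the result was not tested. Ctsb and other members overlapped by a gene on the other strand may share reads with that gene, since no source used here says whether counting used strand. Examples are Ctsz with Nelfcd, Lamp1 with Grtp1, Npc1 with Rmc1 and Idua with Dgkq.

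Ctsl, cathepsin L, a close relative of Ctsb, was also higher at 8 h but, unlike Ctsb, was still higher than at 0 h at 24 h. It was at 111, 113 and 111 (0 h), 127, 140.2 and 144 (4 h), 197, 212 and 232 (8 h) and 234, 225 and 149 (24 h) CPM, and the libraries of these later times lay above those of 0 h. The log2 fold change was 0.94 ± 0.12 (SE, adjusted p = 9.0e-06) at 8 h and 0.86 ± 0.12 (SE, adjusted p = 1.7e-05) at 24 h. The ratio of the related cathepsins therefore shifted from Ctsb toward Ctsl, from 820.2 against 45.1 TPM at 0 h to 469.7 against 103 TPM at 24 h, with Ctsb still the higher.

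Ctsz and Ctsd fell early and stayed low. Ctsz, a carboxypeptidase, was at 42.5, 38.3 and 36.1 (0 h), 32.9, 32.5 and 36.1 (2 h), 24.4, 20.7 and 21.8 (4 h), 18.5, 17.8 and 17.1 (8 h) and 22.5, 20.04 and 21.9 (24 h) CPM. Its libraries from 4 h on were all below those of 0 h. The log2 fold change was -0.80 ± 0.09 (SE, adjusted p = 1.3e-06) at 4 h, -1.13 at 8 h and -0.86 at 24 h. Nelfcd, on its other strand, had a mean of 61.6 CPM at 0 h and 71.2 at 24 h, and its part in the result was not tested. Ctsd, the main aspartic protease of the lysosome and 1 of the members with TCACGTGA, was at 55.8, 55.2 and 61.2 (0 h), 40.5, 42.6 and 44.8 (4 h) and 34.7, 35.7 and 28.9 (24 h) CPM, with log2 fold changes of -0.43 ± 0.09 (SE, adjusted p = 0.0011) at 4 h and -0.79 ± 0.09 (SE, adjusted p = 1.5e-06) at 24 h. Ctsa, the protective protein that shields beta-galactosidase and neuraminidase, was at 79.9, 80.3 and 76.8 (0 h) and 51.9, 52.7 and 53.6 (24 h) CPM, a log2 fold change of -0.58 ± 0.07 (SE, adjusted p = 9.8e-07).

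Lgmn, legumain, the asparaginyl endopeptidase that matures cathepsins, was a weakly expressed gene that fell only after 8 h. It was at 3.67, 5.17 and 3.76 (0 h), 3.56, 4.24 and 4.18 (8 h) and 1.61, 1.66 and 1.704 (24 h) CPM. Its libraries at 8 h overlapped those of 0 h and those at 24 h lay below them, with a log2 fold change of -1.34 ± 0.16 (SE, adjusted p = 2.7e-06). Ctsc, the dipeptidyl peptidase that activates granzymes, was lower at 8 h (-0.41 ± 0.08 (SE, adjusted p = 4.2e-04)) and not called at 24 h (-0.06). Tpp1, a tripeptidyl peptidase, was not called against 0 h at any time in the fit as designed. Without the third 24 h library it was called both higher at 8 h (0.23) and lower at 24 h (-0.24), and the 8 h call was gained in 5 of 25 alternatives. Its 24 h libraries were lower than at 8 h (-0.35 ± 0.09 (SE, adjusted p = 0.0038)).

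Of 9 glycosidases, 3 were higher and 3 lower at 24 h, near the share of all genes tested (30.7% and 28.1%), and Gusb fell most of them. Gusb (ENSMUSG00000025534.17, chr5:129989011-130003049, minus strand), beta-glucuronidase, was at 83.1, 81.5 and 78.6 (0 h), 57.9, 55.97 and 55.5 (2 h), 29.9, 25.5 and 24.7 (4 h), 18.01, 15.3 and 15.2 (8 h) and 18.7, 18.7 and 20.6 (24 h) CPM. Its libraries did not overlap those of 0 h at any later time. It was the only member lower at 2 h in the fit as designed, with a log2 fold change of -0.52 ± 0.08 (SE, adjusted p = 2.3e-04), and it stood at -1.60 ± 0.08 (SE, adjusted p = 4.3e-10) at 4 h, -2.33 at 8 h and -2.07 ± 0.09 (SE, adjusted p = 9.7e-12) at 24 h. In percent of 0 h it was 69.7% ± 1.59 at 2 h and 19.9% ± 1.98 at 8 h (SD, n = 3).

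Gaa (ENSMUSG00000025579.14, chr11:119267887-119285454, plus strand), the acid alpha-glucosidase that breaks down glycogen, was first called at 4 h. It was at 39.8, 37.97 and 35.9 (0 h), 34.3, 33.5 and 31.6 (2 h), 21.2, 16.8 and 18.2 (4 h), 15.8, 12.3 and 13 (8 h) and 14.8, 13.01 and 23.5 (24 h) CPM. All later libraries lay below those of 0 h, and the third 24 h library was the highest of its time. The log2 fold change was -1.01 ± 0.17 (SE, adjusted p = 1.1e-04) at 4 h, -1.47 ± 0.17 (SE, adjusted p = 2.0e-06) at 8 h and -1.15 ± 0.17 (SE, adjusted p = 1.7e-05) at 24 h, and -1.44 at 24 h without that library. Glb1, beta-galactosidase, was lower at 4 h (-0.56 ± 0.11 (SE, adjusted p = 4.1e-04)) and 8 h (-0.44) and was -0.28 ± 0.10 (SE, adjusted p = 0.024) at 24 h, not called, and -0.37 without the third 24 h library, which passed. Tmppe, which shares exons with Glb1 on the same strand, had a mean of 7.25 CPM at 0 h where Glb1 had 17.9, and 5.42 against 20.1 at 2 h, 3.89 against 12.2 at 4 h and 6.20 against 14.7 at 24 h. The means thus went opposite ways at 2 h and were both lower at 4 h, and the part of Tmppe in the result was not tested. Hexa, a glycosidase of ganglioside breakdown, was near the lower limit at 1.52, 1.23 and 1.31 (0 h), 1.25, 1.24 and 1.04 (8 h) and 0.403, 0.642 and 0.434 (24 h) CPM and fell late, with a log2 fold change of -1.45 ± 0.23 (SE, adjusted p = 5.1e-05).

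Of the other glycosidases, Idua, Naglu and Fuca1 rose. Idua, alpha-L-iduronidase, was at 3.43, 2.47 and 3.25 (0 h), 3.19, 4.05 and 3.53 (8 h) and 5.68, 5.78 and 8.62 (24 h) CPM, a log2 fold change of 1.13 ± 0.19 (SE, adjusted p = 6.3e-05) that was the largest rise of any member at 24 h, and 0.91 without the third 24 h library, below those of Ctsl (1.04) and Mitf (0.96). Dgkq, on its other strand, had a mean of 8.66 CPM at 0 h and 13.7 at 24 h, and its part in the result was not tested. Naglu, which acts on heparan sulfate, was at 8.08, 8.39 and 8.67 (0 h), 11, 9.98 and 10.9 (8 h) and 14.6, 11.6 and 13.3 (24 h) CPM, a log2 fold change of 0.65 ± 0.10 (SE, adjusted p = 3.9e-05) at 24 h. Fuca1, alpha-L-fucosidase, rose by 4 h (0.43 ± 0.08 (SE, adjusted p = 3.0e-04)) and was 0.35 ± 0.08 (SE, adjusted p = 8.9e-04) at 24 h. Man2b1, alpha-mannosidase, was at 46, 40.8 and 44.8 (0 h), 36.3, 32.9 and 32.6 (8 h) and 45.6, 45.5 and 67.4 (24 h) CPM, was not called against 0 h in the fit as designed, and was higher at 24 h than at 8 h (0.64 ± 0.13 (SE, adjusted p = 7.0e-04)). Without the third 24 h library, the highest, that value was 0.42, still past the test, the value against 0 h was 0.05, and Man2b1 was called lower at 8 h (-0.37). Gla, alpha-galactosidase A, whose promoter window has TCACGTGA at 2 places, was not called against 0 h at any time in the fit as designed. It was 0.37 ± 0.11 (SE, adjusted p = 0.012) at 4 h, 0.35 ± 0.11 (SE, adjusted p = 0.012) at 8 h and 0.19 at 24 h. A call was gained in 6 of 25 alternatives at 4 h, in 6 at 8 h and in 1 at 24 h.

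Of the sulfatases only Arsa passed against 0 h. Arsa, which removes sulfate from sulfatide, was at 8.27, 7.71 and 7.52 (0 h), 12.5, 10.1 and 11.5 (2 h), 11.9, 12.1 and 12.1 (4 h), 15.99, 14.2 and 14.1 (8 h) and 11.3, 11.8 and 17.2 (24 h) CPM. All later libraries were above those of 0 h. The log2 fold change was 0.62 ± 0.14 (SE, adjusted p = 0.0018) at 4 h, 0.91 ± 0.14 (SE, adjusted p = 3.5e-05) at 8 h and 0.78 ± 0.14 (SE, adjusted p = 1.3e-04) at 24 h. Sgsh and Ids, which act on heparan sulfate, were 0.08 and -0.05 at 24 h, and neither passed. Without the third 24 h library Ids was -0.29 and passed.

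Lipa was called higher at each time from 2 h on. Lipa (ENSMUSG00000024781.15, chr19:34492318-34527474, minus strand) encodes the acid lipase that frees cholesterol and fatty acids from lipoproteins and lipid droplets. It was at 97.6, 95.03 and 95 (0 h), 114, 118 and 123 (2 h), 146, 148 and 142 (4 h), 169.7, 170.1 and 171 (8 h) and 175, 172 and 161 (24 h) CPM. It was the only member higher at 2 h in the fit as designed, where the 3 libraries already lay above those of 0 h. Its log2 fold change was 0.31 ± 0.05 (SE, adjusted p = 6.8e-04) at 2 h, 0.60 ± 0.05 (SE, adjusted p = 2.2e-07) at 4 h, 0.83 at 8 h and 0.82 ± 0.05 (SE, adjusted p = 2.4e-09) at 24 h, or 177% ± 7.36 (SD, n = 3) of the 0 h level. Asah1, acid ceramidase, was at 27.3, 27.95 and 27.1 (0 h), 26.95, 27.1 and 29.3 (8 h) and 19.97, 20.2 and 16.4 (24 h) CPM. It was not called up to 8 h and fell by 24 h (-0.54 ± 0.08 (SE, adjusted p = 3.5e-05)).

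**Figure D3:**
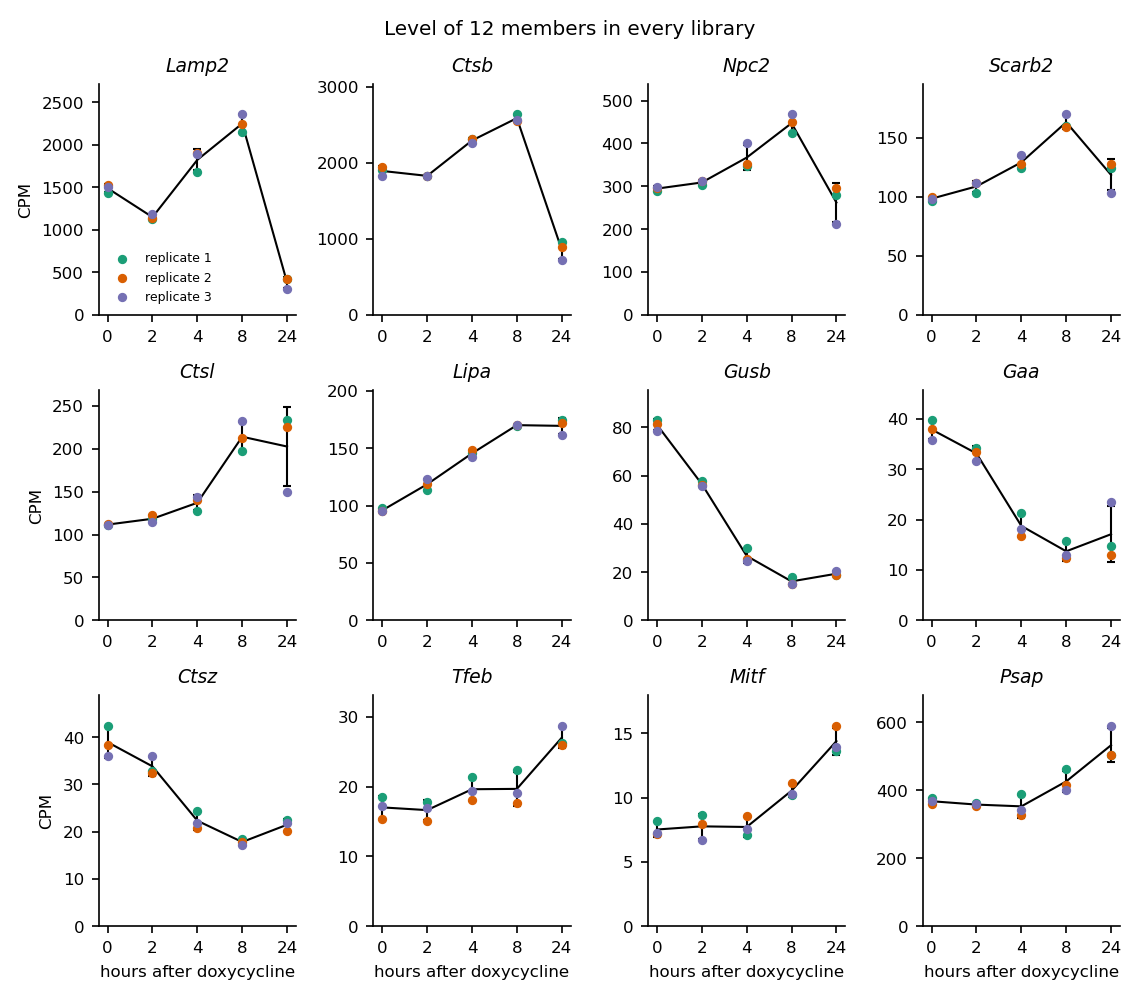
CPM of 12 members in each of the 15 libraries (points, colored by replicate number, which was not taken to link libraries across times) with the mean and SD of each time (line and bars), at evenly spaced times. Lamp2, Ctsb, Npc2 and Scarb2 peak at 8 h, Gusb, Gaa and Ctsz go down by 4 h, Lipa goes up from 2 h, and Tfeb, Mitf and Psap are highest at 24 h.

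The shape of the time course was examined by comparing 24 h directly with the middle times. Against 4 h, 11 of 35 members were higher (background 24.9% of all genes tested) and 12 lower (23.4%). Against 8 h, a comparison added after the values were seen, 8 were higher (20.8%) and 10 lower (17.3%). On library totals the share of higher calls among all genes went from 51.5% to 73.0% against 4 h and from 54.6% to 74.4% against 8 h, and the members from 11 higher and 12 lower to 15 and 7 and from 8 and 10 to 12 and 7. The larger falls from 8 h to 24 h were those of Lamp2 (-2.57 ± 0.11 (SE, adjusted p = 2.2e-10)), Ctsb (-1.60 ± 0.09 (SE, adjusted p = 2.1e-09)), Lgmn (-1.26 ± 0.16 (SE, adjusted p = 1.8e-05)) and Hexa (-1.24 ± 0.24 (SE, adjusted p = 5.3e-04)). Npc2 (-0.77), Asah1 (-0.56) and Scarb2 (-0.46) fell as well. Members called lower at 4 h were not among them: from 8 h to 24 h Gusb was 0.26, Gaa 0.32, Ctsz 0.27 and Ctsd -0.11 on the log2 scale, none of them called. For Gusb and Ctsz, however, the 24 h libraries all lay above those of 8 h. On library totals edgeR called both higher, Gusb at 0.43 (adjusted p = 0.0016) and Ctsz at 0.44 (adjusted p = 9.9e-04). With Lamp2 and Ctsb left out, the members' summed level was 2207 ± 22.4 CPM at 0 h, 2534 ± 56.0 at 8 h and 2546 ± 73.6 at 24 h. With them it was 5586 ± 86.0, 7370 ± 68.3 and 3780 ± 117 CPM (SD, n = 3). CPM are not divided by gene length, so that long genes weigh more in these sums. In TPM the sum with them was 2867 ± 53.4, 3616 ± 184 and 2994 ± 236, with the mean at 24 h not below that at 0 h.

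Other lysosomal gene lists were set beside the members at 24 h against 0 h. Beside them stand the shares of all genes tested, 30.7% higher and 28.1% lower. Of 29 tested genes of other lysosomal proteins, 12 were higher and 4 lower, with a median log2 fold change of 0.27 against 0.07 for all genes tested. Ctso, a cathepsin (1.06 ± 0.11 (SE, adjusted p = 5.7e-07)), and Smpd1, acid sphingomyelinase (0.87 ± 0.08 (SE, adjusted p = 2.0e-07)), rose, and Sumf1, which activates sulfatases, fell (-1.05 ± 0.11 (SE, adjusted p = 6.4e-07)). Of 16 subunits of the proton pump that acidifies the lysosome, 4 were higher and 4 lower (8 and 1 on library totals), among them Atp6v0c (0.58), Atp6v1d (0.55), Atp6v1b2 (-0.68) and Atp6v1a (-0.47).

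Genes that control TFEB from the lysosome and genes that tag the hydrolases were counted in the same way. Of 19 genes of mTORC1 and Rag GTPase control, 1 was higher and 9 lower (median -0.30, and 2 higher and 3 lower on library totals). Rragb (-1.62 ± 0.09 (SE, adjusted p = 2.8e-10)) and Rragd (-0.98 ± 0.06 (SE, adjusted p = 1.2e-09)), Rag GTPases that recruit mTORC1, fell, as did Fnip2 (-1.45) and Flcn (-0.63), partners in the folliculin complex that acts on RagC and RagD. Of 8 genes of mannose 6-phosphate tagging and sorting, 4 were lower by edgeR (median -0.29). None was higher at an adjusted p under 0.01 by edgeR in the fit as designed or by DESeq2. By edgeR on library totals 1 was higher, and in the fit as designed 1 was higher at an unadjusted p under 0.05. The lower ones were Gnptab, the catalytic subunit of the phosphotransferase that starts the tag (-1.85 ± 0.12 (SE, adjusted p = 2.7e-09)), and Nagpa, which uncovers it (-1.70 ± 0.15 (SE, adjusted p = 5.3e-08)). The adaptor Gga2 (-1.50) and the receptor M6pr (-0.28) were the others. Of 11 genes of endosome and lysosome tethering, 4 were higher and 6 lower (median -0.38), with Plekhm2 (0.86), Arl8a (0.75) and Plekhm1 (0.58), which link lysosomes to transport and fusion, higher and Vps33a (-0.82), a subunit of the tethering complex HOPS, lower. These counts describe the lists, and whether a list differs from other genes was not tested.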

How the data were processed

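PolyA RNA of mouse T-ALL cells was sequenced in 15 libraries, 3 per time, grouped by the time in their labels. For each library the authors deposited raw counts per gene and TPM. Tools in the submitters' processing notes are STAR 2.5.4b, cutadapt 1.16 and featureCounts, on mm10. No source used here gives the strand setting. FPKM and the remaining deposited columns were not used. Counts were tested in edgeR 4.0.16 (R 4.3.3) after filterByExpr (14485 genes) and TMM, with glmQLFit over all 15 libraries and 1 mean per time. Calls are a Benjamini-Hochberg adjusted p under 0.01 over all genes tested. CPM are on TMM-scaled totals. The fit was tested on simulated data first. These had a common spread for all genes and fewer changed genes than were called here, and so do not check the scaling of these data. Total counts were 25852711 to 27102318 per library, and the limit of 3 counts behind an observed 0 covers counting error only.

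Gene positions are from GENCODE M21 on GRCm38, and promoter windows from RefSeq on GRCm38.p6. The members and lists were chosen with earlier results of these data known. Any member could be named, and from each other list up to 4 tested genes with the largest change among those called at 24 h against 0 h, or all called where there were at most 5. A gene that this rule names among the other lysosomal proteins is not reported here. Genes singled out otherwise, such as overlapping neighbours, were named after their values were seen. As alternatives, TMM was replaced by RLE, library totals, upper-quartile factors or TMM without mitochondrial and the 20 most abundant genes. The filter was dropped or set to 10 counts in each library, edgeR was replaced by DESeq2 1.42.0, and only the times compared were fitted. The threshold was set to 0.05, the replicate number entered as a block, and each library was left out in turn. Percentages of the 0 h level were recomputed from TPM and from unscaled CPM. The comparison of 24 h with 8 h was added after seeing the data. Replicates of a time differed by more than sampling noise.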

Additional observations from a re-analysis of the deposited data

Results flagged for a closer look

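Lamp2 and Ctsb were picked out because each was called in opposite directions against 0 h at 8 h and at 24 h, with the difference between those times itself past the test. The log2 fold change of 24 h against 8 h was -2.57 for Lamp2 and -1.60 for Ctsb by edgeR, lower at 24 h in 3 of 3 libraries for both. Without the third 24 h library these were -2.43 and -1.49, and on library totals -2.40 and -1.43. Against 0 h both comparisons use the same 0 h libraries.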

How the results depend on the processing

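No called member changed direction under any alternative run. Over 5250 pairs of a member's comparison and an alternative, 4986 kept their side of the threshold, 153 passed only under the alternative and 111 no longer passed. Among the 4986, 80 changed sign, all of members not called in either fit. Of 93 calls, 59 held under every alternative. The counts of members called moved by over 1.5 times as follows, and the cause was not tested. At 2 h, 2 were higher on library totals, on upper-quartile factors, without a low-count filter, with at least 10 counts in every library, with DESeq2 and at an adjusted p under 0.05, and 7 in a fit of only the times compared. At 2 h, 2 were lower with RLE size factors, without a filter, with DESeq2 and at an adjusted p under 0.05, and 5 in the fit of only the times compared. At 4 h, 8 were higher on library totals, 11 on upper-quartile factors, 7 without a filter, 11 with only the times compared and 10 at an adjusted p under 0.05, and 9 and 8 were lower in the last 2. At 8 h, 4 were lower on upper-quartile factors. At 24 h against 4 h, 4 were higher with only the times compared and 7 lower on library totals. At 24 h against 8 h, 0 were higher and 6 lower by edgeR with only the times compared, and 8 and 10 by DESeq2 over all times.

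For the other lists at 24 h against 0 h, with only the times compared, 7 other lysosomal proteins, 2 proton pump subunits and 2 tethering genes were higher and 2 pump subunits lower. On library totals, 8 pump subunits, 2 mTORC1 genes and 1 tagging gene were higher, and 2 other lysosomal proteins, 1 pump subunit, 3 mTORC1 genes and 2 tethering genes lower. Upper-quartile factors gave 2 pump subunits lower and 2 mTORC1 genes higher. At least 10 counts in every library gave 2 pump subunits lower and 2 mTORC1 genes higher, no filter gave 2 pump subunits higher, and an adjusted p under 0.05 gave 2 mTORC1 genes higher.

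Leaving out 1 library at a time gave 1 to 3 members higher and 1 to 2 lower at 2 h, 4 to 11 and 5 to 9 at 4 h, 8 to 13 and 5 to 8 at 8 h, and 11 to 14 and 11 to 15 at 24 h. It gave 7 to 12 higher and 11 to 14 lower at 24 h against 4 h, 5 to 9 and 8 to 13 against 8 h, and 28 to 33 changed over the time course. The highest counts against 0 h came without the third 24 h library (at 2 h 3 and 2, at 4 h 11 and 9), the 8 lower at 8 h also without 4 h replicate 1. Without 24 h replicate 1 or 2, 2 were higher at 2 h. Without 4 h replicate 3, 7 were higher at 24 h against 4 h, and without 8 h replicate 2 or 3, 5 against 8 h. For the lists it gave 10 to 14 and 4 to 5 other lysosomal proteins, 3 to 5 and 2 to 6 pump subunits, 1 to 2 and 7 to 10 mTORC1 genes, 0 to 1 and 3 to 4 tagging genes, and 3 to 4 and 6 tethering genes higher and lower. Lower pump subunits were 2 without 0 h replicate 2 or 3.

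The replicate numbers were not taken to link libraries across times. The deviations of same-numbered libraries correlated at -0.507 to 0.541 for number 1, -0.030 to 0.202 for number 2 and -0.599 to 0.424 for number 3. Differently numbered libraries were not compared, so that these ranges cannot decide whether the numbers link libraries. With the replicate block, 13 members were higher and 11 lower at 24 h, and 2 pump subunits were lower in place of 4. Of 140 levels given as a percentage of 0 h, 43 moved by over 1 SD in TPM and 61 in CPM on library totals. At 24 h these were 33 and 24 of 35, and 5 members in TPM and 4 on library totals went from below to above their 0 h level, none of them called, Npc2 from 89.0% to 113% in TPM for one. Lamp1 at 24 h, for one, was 95.5% of 0 h in TPM and 75.1% in CPM. Members at a few CPM, such as Hexa and Idua, rest on fewer reads and have the widest errors.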
